A study of Homo sapiens with 2 samples.

Results

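The genes described here handle fatty acids from the cell surface to the end of beta-oxidation, and they were compared between HCC15 cells with and without knockdown of CTNNB1, the gene of beta-catenin. HCC15 is an established human lung cancer cell line, which the labels class as squamous and the series title places among CTNNB1-mutated non-small-cell lung cancers. The members were 38 genes chosen by their role, with earlier results of these data known. A probe set of the expression array was taken as a member's when GEO's platform annotation gave it that 1 gene symbol alone. By this rule 37 of the 38 genes had a probe set, 75 probe sets in all, out of 19775 genes with a probe set of a single symbol. ACSL3 matched no probe set and was not analysed here.

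The control siRNA group and the CTNNB1 siRNA group each consisted of 1 array of RNA from 1 culture of HCC15, collected 48 h after transfection and grown with 5% serum. The labels give no sequence or target for the control siRNA, whose sample carries "Tax" in its title with no explanation, and they mention a single siRNA against CTNNB1. A group of 1 array has no replicates, so neither a test nor a p-value could be had, and each value is a single measurement. Differences between the 2 cultures that have nothing to do with the siRNA cannot be told apart from its effect.

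Long-chain fatty acids enter a cell with the help of transport proteins and are joined to coenzyme A by acyl-CoA synthetases, which traps and activates them. The carnitine shuttle then carries the acyl groups into mitochondria, where dehydrogenases, hydratases and thiolases remove acetyl-CoA in repeated cycles and pass electrons to the respiratory chain through the electron transfer flavoprotein. Peroxisomes run a parallel set of enzymes that shortens very-long-chain, branched and other fatty acids and starts with an oxidase that makes hydrogen peroxide. The PPAR nuclear receptors bind fatty acids and switch on many genes of these steps.

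Signals are deposited intensities on a linear scale. Log2 ratios are of CTNNB1 siRNA over control siRNA, so a ratio below 0 means a lower signal after CTNNB1 siRNA. A probe set entered the comparison if its mean signal over both arrays was at least 49.1, the median of all values, and the brightest such probe set, by mean signal, stood for its gene. Of the 38 members, 33 entered, with 51 probe sets. To give a scale of error, log2 ratios were compared between the entering probe sets of 1 gene, and their pooled SD was 0.42 over 5791 genes. It was 0.29 among probe sets with a mean signal of at least 209, the 75th percentile, and 0.52 among those between the median and 209. This SD covers differences between probes and transcripts, not differences between cultures.

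The label of the CTNNB1 siRNA array was checked first on the targeted gene. The probe set 201533_at of CTNNB1 read 1224 with control siRNA and 338.7 with CTNNB1 siRNA, a log2 ratio of -1.85, and its 2 other probe sets had log2 ratios of -0.97 and -0.13. Epithelial markers (EPCAM, CDH1, KRT8 and KRT18) all entered, with summed signals of 21803 and 23283 on the control and CTNNB1 siRNA arrays. That sum is mostly KRT8 and KRT18, and CDH1 went the other way, with 939.3 and 593.7 (-0.66). Of 8 squamous markers 3 entered (PERP, SFN and SOX2), and SOX2 did so only through a dim probe set with 60.1 and 41.6. KRT5, KRT14 and DSG3 stayed under the signal filter, and TP63 and KRT6A were not analysed here. Of 4 lung adenocarcinoma markers 3 entered at low signals (summed signals of 349 and 436), and the lineage factor NKX2-1 did not. Of the markers of other cell types, 1 of 4 fibroblast genes entered (DCN, 80.5 and 86.6). No macrophage, adipocyte or hepatocyte marker entered, and their summed signals were at most 118 per type on either array.

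A pair of promoter stretches is shown for context, and no array value rests on them. The first is the sequence upstream of SLC27A2, the only member that passed a 2-fold difference. The second lies between HADHA and HADHB, the 2 subunit genes of the mitochondrial trifunctional protein, which are read in opposite directions from neighbouring start sites. Both come from NCBI RefSeq promoters on GRCh38.p14, which held 33 of the 38 members, and both are the 250 bases before the transcript start, written 5′ to 3′ on the plus strand (chr15:50181946-50182195 for SLC27A2 and chr2:26244689-26244938 for HADHB). Capitals mark a GC box, GGGCGG, in the SLC27A2 sequence. In the HADHB sequence they mark the 194 bases that also lie within the 250 bases before the HADHA start on the other strand.
SLC27A2: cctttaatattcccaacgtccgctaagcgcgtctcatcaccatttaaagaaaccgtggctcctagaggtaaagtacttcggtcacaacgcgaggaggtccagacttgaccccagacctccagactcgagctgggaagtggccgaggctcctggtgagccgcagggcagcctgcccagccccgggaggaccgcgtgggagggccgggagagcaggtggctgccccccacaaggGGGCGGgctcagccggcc
HADHB: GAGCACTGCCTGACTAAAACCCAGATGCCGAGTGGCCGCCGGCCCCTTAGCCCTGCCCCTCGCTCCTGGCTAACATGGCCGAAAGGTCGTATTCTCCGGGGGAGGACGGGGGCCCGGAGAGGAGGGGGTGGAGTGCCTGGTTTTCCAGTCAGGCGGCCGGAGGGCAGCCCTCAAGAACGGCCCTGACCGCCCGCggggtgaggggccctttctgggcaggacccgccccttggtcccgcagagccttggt

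The 6-base core of TCF/LEF sites, the DNA-binding partners of beta-catenin, was searched as CTTTGA and as CTTTGT on both strands of the 300-base window that runs to 50 bases after the start. Neither form was found in the SLC27A2 window. CTTTGA occurred in 12.9% and CTTTGT in 16.1% of all 35116 promoter windows. The 33 members had 55 windows, since several start at more than 1 site. CTTTGA was in 3 of the 55 (5.45%, in ACSL1, ACSL5 and HADH) and CTTTGT in 10 (18.2%, from 8 genes). The hexamer bound by nuclear receptors such as the PPARs, AGGTCA, was not in the SLC27A2 window either, and it occurred in 13.8% of all windows and in 4 of the 55 member windows (7.27%, ACSL5 and PPARG). Its direct repeat AGGTCANAGGTCA, which contains the hexamer, was found for none of the members and in 0.0228% of windows. The GC box was in 33 of the 55 member windows (60.0%) and in 45% of all windows. These counts describe letters in short windows and say nothing about binding.

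Across the whole set, the difference was concentrated in 1 gene. SLC27A2 was 3.03-fold lower with CTNNB1 siRNA, and none of the other 32 entering members reached 2-fold in either direction. That is 1 of 33 members at least 2-fold lower, 3.03%, against 2.38% of all 12531 entering genes, and 0 of 33 at least 2-fold higher against 2.29%. The counts are near the background shares. Of the 33 members, 24 (72.7%) had a log2 ratio within the probe set SD, as did 66.9% of all genes. A further 6 (18.2%, background 21.3%) were higher and 3 (9.09%, background 11.9%) were lower by more than that SD.

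**Figure D1:**
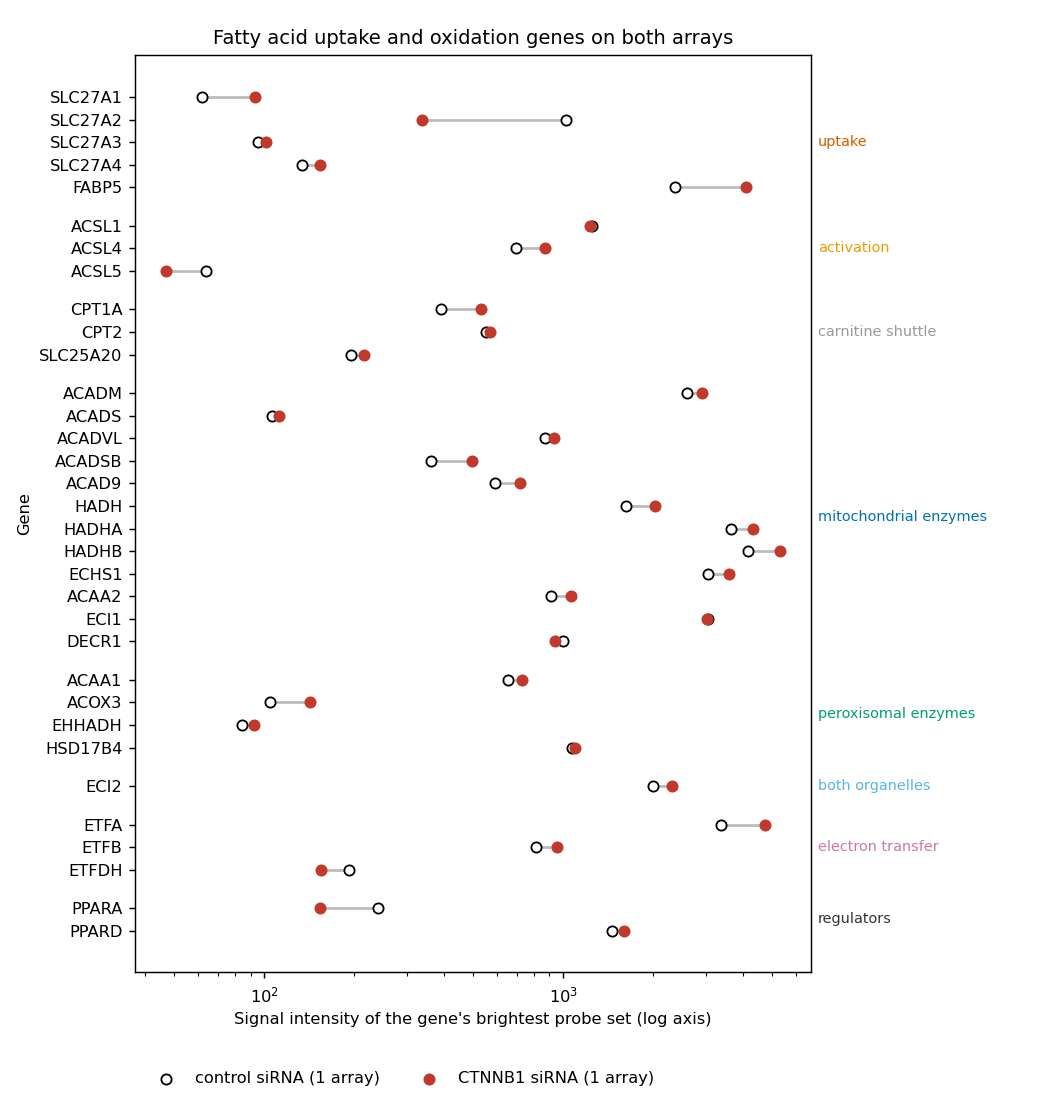
Signal intensity (log axis) of the brightest probe set of each of the 33 entering members, grouped by role, with the control siRNA array as open circles and the CTNNB1 siRNA array as filled circles, 1 array each. The long bar of SLC27A2 runs from 1019.6 down to 336.7, and most other pairs of circles lie close together.

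The median log2 ratio of the 33 members was 0.17 and that of all entering genes was 0.15. The ratio depended on signal over all genes. When the genes were put into 10 classes of equal size by mean signal (deciles), the median went from -0.23 in the dimmest to 0.27 in the brightest, and 23 of the 33 members had a mean signal of at least 209, where the median of the 7913 genes was 0.23. When each member was set against the median of its own decile, 15 members lay above and 18 below, with a median difference of -0.02.

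**Figure D2:**
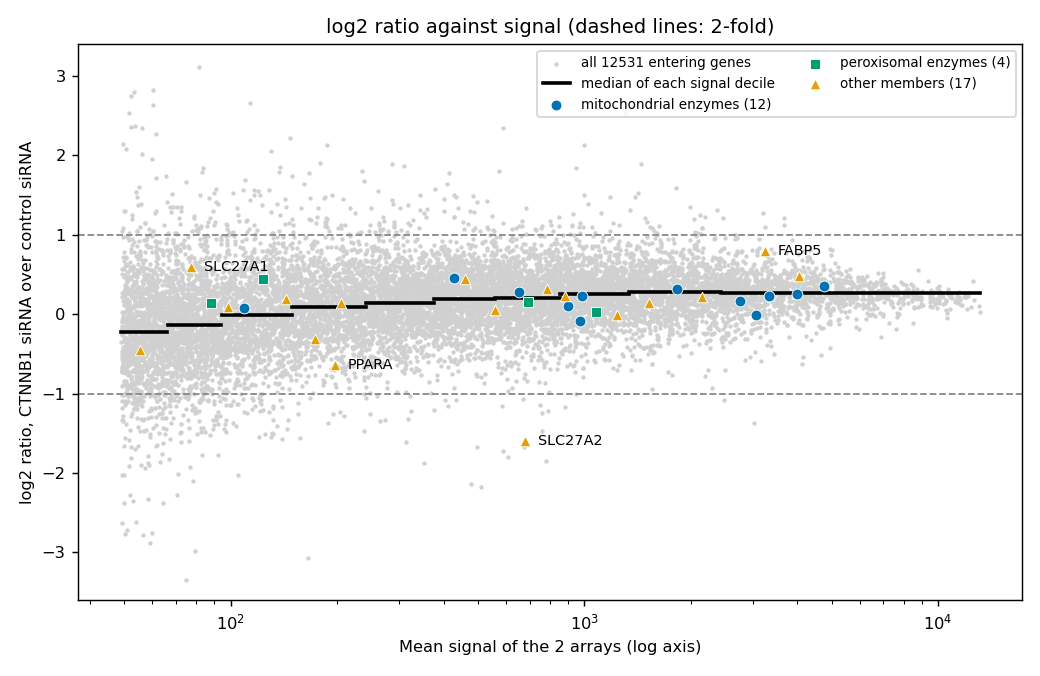
Log2 ratio of CTNNB1 siRNA over control siRNA against the mean signal of both arrays (log axis) for all 12531 entering genes in grey, with 12 mitochondrial enzymes, 4 peroxisomal enzymes and the 17 other members in colour. Black bars give the median of each decile of genes by signal, from -0.23 to 0.28, and the enzymes lie near them, while SLC27A2 lies at -1.60.

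Uptake genes held both the lowest and the highest ratio of the set. SLC27A2 encodes a very-long-chain acyl-CoA synthetase that also takes part in fatty acid transport (FATP2). Its probe set 205768_s_at read 1019.6 on the control array and 336.7 after CTNNB1 siRNA, a log2 ratio of -1.60 that leaves 33% of the control signal. Its other probe set, 205769_at, read 799.7 and 304.9, a log2 ratio of -1.39, so both probe sets were low on the CTNNB1 siRNA array. In RNA of a whole culture, less RNA per cell and fewer cells with the transcript cannot be told apart. The difference was larger than the probe set SD of 0.29 for bright probe sets. Among the 7913 genes with a mean signal of at least 209, 0.43% were at least 2-fold lower, and SLC27A2 had the 10th lowest ratio. As the members were chosen with earlier results of these data known, that place is only a description of SLC27A2. Its log2 ratio stayed between -1.83 and -1.39 under all 13 alternative settings.

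The other members of the transporter family did not share this direction. SLC27A1 (FATP1) read 61.8 and 93.1, a log2 ratio of 0.59 from a dim signal, just above the SD of 0.52 for dim probe sets. SLC27A3 read 95.3 and 101.5, and SLC27A4, which encodes FATP4, read 134.2 and 153.1. Their log2 ratios of 0.09 and 0.19 were within the SD, and each turned slightly negative in at least 1 alternative setting (lowest -0.12 and -0.02). Each of these 3 genes had a single probe set, so no second reading of the same transcript was at hand. SLC27A5, a liver bile acid and fatty acid-CoA ligase of the same family that was not a member, read a log2 ratio of 0.26.

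FABP5, a cytosolic fatty acid binding protein that is widespread in epithelial cells, had the highest ratio of the set. Its probe set 202345_s_at read 2371.3 on the control array and 4092.5 after CTNNB1 siRNA, a log2 ratio of 0.79 or 173% of the control signal. The ratio was 0.52 after loess and 0.51 after quantile normalization, still above the SD of 0.42. The _s_at ending marks a probe set that can read related sequences, and FABP5 has pseudogene copies, so the value is uncertain in that respect. CD36, the scavenger receptor that binds fatty acids at the cell surface, did not enter, and none of its 5 probe sets read above 41.2 on either array.

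The 3 acyl-CoA synthetases of the ACSL family that entered had log2 ratios from -0.45 to 0.32. ACSL1, which feeds both oxidation and triglyceride synthesis, read 1245 and 1232.5, a log2 ratio of -0.01, and -0.13 in its second probe set. ACSL4, which prefers arachidonic acid and other polyunsaturated acids, read 696.8 and 870.8 (0.32), but 84.7 and 77.3 in a dimmer probe set (-0.13). ACSL5 read 64 and 46.9, a log2 ratio of -0.45 at a signal where the SD was 0.52. The median of genes in its decile was -0.23.

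All 3 carnitine shuttle genes had ratios above 0, as did 8024 of the 12531 entering genes, and 1 of the 3 exceeded the median of all genes. CPT1A, the malonyl-CoA-sensitive enzyme that commits fatty acids to mitochondrial oxidation, read 390.4 and 530.4, a log2 ratio of 0.44. A pair of dim CPT1A probe sets under the filter pointed the same way (34.2 and 62.5, 35.2 and 62.9) and another did not (32.9 and 8.8). CPT2, its partner on the inner membrane, read 551.5 and 570 (0.05), with 0.36 in a dimmer probe set, and the carnitine-acylcarnitine carrier SLC25A20 read 195.7 and 215.5 (0.14). After loess none of the 3 was beyond the SD, and the lowest ratios over the alternative settings were 0.23, -0.17 and -0.08 in that order.

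All 12 mitochondrial enzymes entered, 11 of them within the probe set SD, as were 66.9% of all genes, and none at 2-fold. Their log2 ratios ran from -0.09 to 0.46 with a median of 0.23, equal to the median of all genes with a mean signal of at least 209, a range in which 11 of the 12 lay. Held to the SD of 0.29 for bright probe sets, 3 of those 11 were higher by more (ACADSB, HADH and HADHB) and 0 lower by more. Of all genes in that range, 41.3% were higher by more. The share lower by more was not computed, so the count of 0 has no background beside it. Against the median of its own decile, 5 enzymes were above and 7 below.

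Acyl-CoA dehydrogenases open each cycle and differ in the chain length they accept. ACADM, the medium-chain enzyme, read 2599.4 and 2924.2, a log2 ratio of 0.17. The short-chain enzyme ACADS read 106 and 112.2 (0.08) and the very-long-chain enzyme ACADVL 868.1 and 932.7 (0.10). These 3 differences were within the SD at any signal. ACAD9, also an assembly factor of respiratory complex I, read 591.7 and 718.7 (0.28). ACADSB, which serves isoleucine breakdown, was the one mitochondrial enzyme beyond the SD in its brightest probe set, with 360.6 and 495.2 (0.46). Its second probe set went the other way, 376.7 and 326.9 (-0.20), so its direction was not settled.

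The trifunctional protein joins hydratase, 3-hydroxyacyl-CoA dehydrogenase and thiolase activities for long chains. HADHA, its alpha subunit, had 2 of 3 probe sets beyond the SD of 0.42. It read 3646.3 and 4331.5 (0.25) in 208631_s_at, 2639 and 3729.6 (0.50) in 208630_at and 637.5 and 868.2 (0.45) in 208629_s_at. HADHB, its beta subunit, read 4166.3 and 5332.5 (0.36). All 4 probe sets of the pair were higher on the CTNNB1 siRNA array. In RefSeq 306 bases lie between the 2 start sites, among them the sequence printed above. Set against the median of their decile, 0.27, the representative probe sets of HADHA and HADHB differed by -0.02 and 0.09, and HADHA went to -0.04 in the lowest of its alternative settings.

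Among the enzymes for shorter chains, HADH, a 3-hydroxyacyl-CoA dehydrogenase, read 1628.7 and 2030.5 (0.32), with 0.36 and -0.02 in its other probe sets. The hydratase ECHS1 read 3054.6 and 3590.4 (0.23) and the thiolase ACAA2 907.4 and 1063.8 (0.23). The 2 auxiliary enzymes for unsaturated fatty acids were the only ones of the 12 below 0. ECI1, an isomerase that moves double bonds, read 3058.8 and 3038.5 (-0.01), and DECR1, the 2,4-dienoyl-CoA reductase, read 1001 and 938.2 (-0.09). Both lay within the SD of 0 (up to 0.13 and 0.04 with scaling to a common median) and at -0.28 and -0.34 from the median of their decile.

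**Figure D3:**
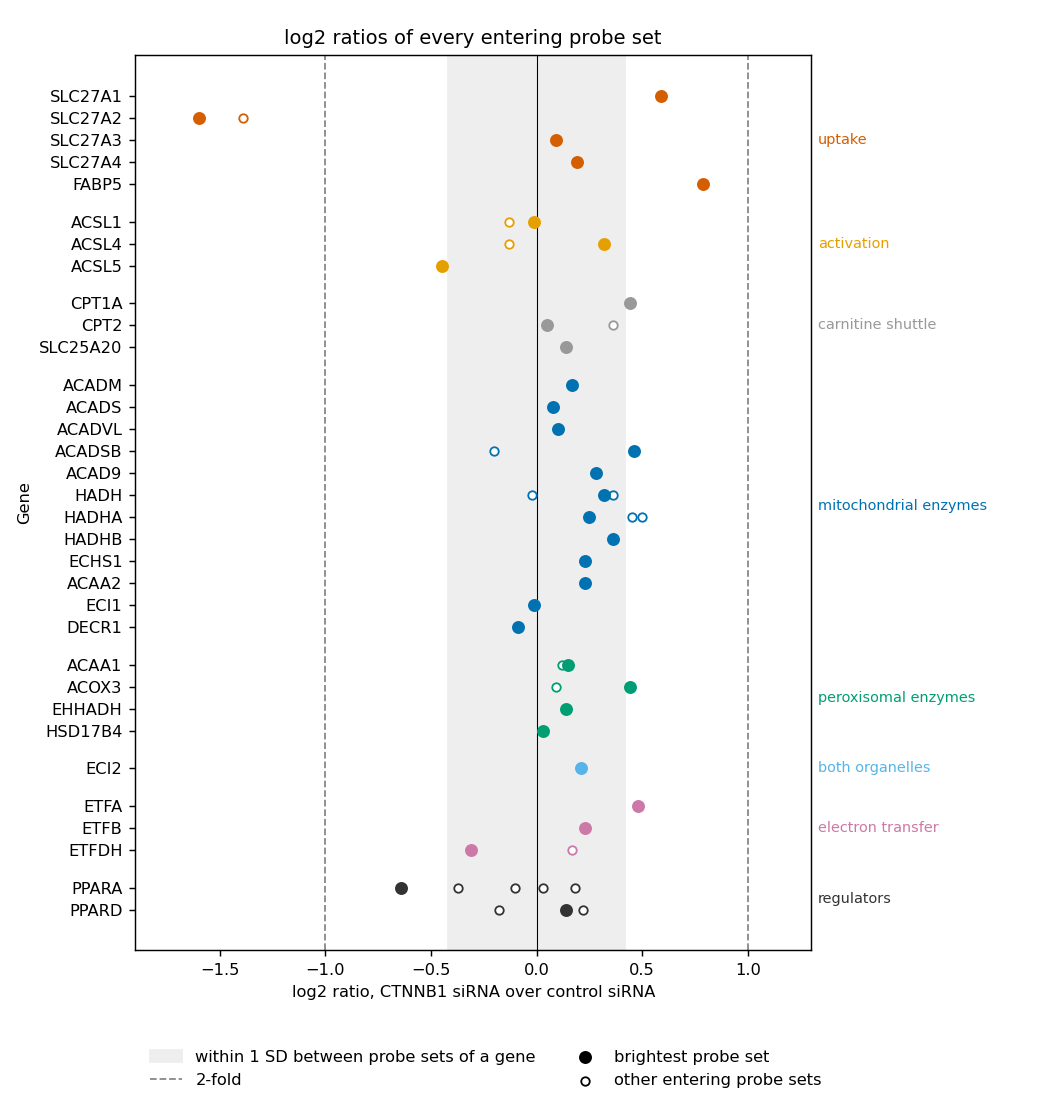
Log2 ratio of CTNNB1 siRNA over control siRNA for all 51 entering probe sets of the 33 members, with the representative probe set filled and the others open, the grey band at 0.42 on either side of 0 (SD between probe sets of a gene) and dashed lines at 2-fold. Both SLC27A2 probe sets lie beyond the lower line and no other point lies beyond either line.

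The 4 peroxisomal enzymes all had ratios above 0, from 0.03 to 0.44, with a median of 0.14. Of all 12531 entering genes, 8024 were above 0, and 1 of the 4 enzymes exceeded the median of all genes, 0.15. Against the median of their own decile, 2 were above and 2 below. HSD17B4, the multifunctional enzyme for branched and very-long chains, read 1071.3 and 1091.9 (0.03). EHHADH, its counterpart for straight and dicarboxylic chains, read 84 and 92.6 (0.14). The thiolase ACAA1 read 656 and 725.7 (0.15), with 0.12 in its second probe set. ACOX3, an oxidase for branched chains, read 104.8 and 141.9 (0.44), with 73.7 and 78.3 (0.09) in its second, so the larger of the 2 readings was not repeated. ACOX3 kept its sign under every alternative setting in which it entered, whereas HSD17B4, EHHADH and ACAA1 went down to -0.24, -0.07 and -0.09. ECI2, an isomerase found in both organelles, read 1995.1 and 2314.4 (0.21).

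No difference between mitochondrial and peroxisomal enzymes could be established on these arrays. The median log2 ratio was 0.23 for the 12 mitochondrial and 0.14 for the 4 peroxisomal enzymes, a difference of 0.09. The probe set SD scaled to the 2 list sizes gives 0.24 as a rough mark for such a difference. It treats the genes as independent, uses a formula for means and leaves out differences between cultures, so it is no test. The 2 ranges overlapped, and 2 of the 4 peroxisomal but 11 of the 12 mitochondrial enzymes had a mean signal of at least 209. The difference ran from -0.08 to 0.19 over 16 alternative settings. It was -0.07 after loess, which removes the dependence on signal, so its sign was not settled either.

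**Figure D4:**
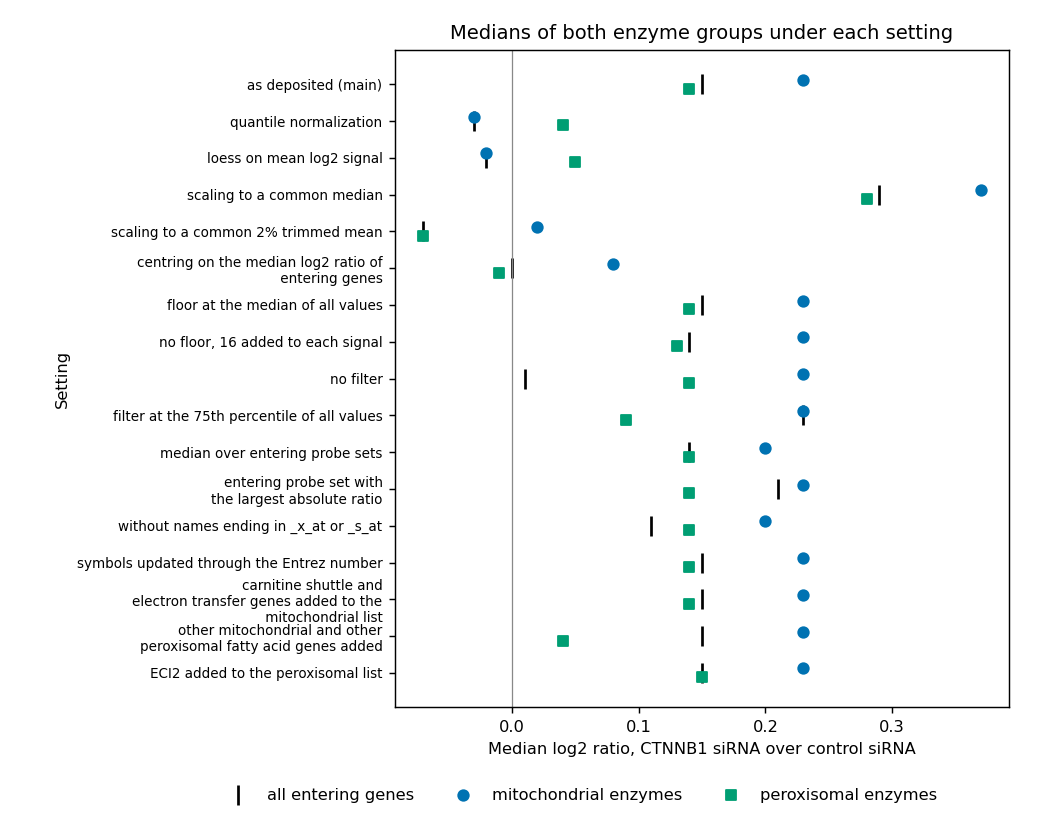
Median log2 ratio of the mitochondrial enzymes (circles), the peroxisomal enzymes (squares) and all entering genes (bars) as deposited and under 16 alternative settings. The mitochondrial median lies between -0.03 and 0.37 and moves with the scaling of the arrays, and the order of both groups turns after quantile normalization and loess.

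Other genes of both organelles, from lists of genes that were not members, were also mostly within the probe set SD. Of 14 further peroxisomal fatty acid genes, 10 entered, 9 of them within the SD, with a median log2 ratio of 0.02 and none at 2-fold. CRAT, the carnitine acetyltransferase found in mitochondria and peroxisomes, read 899.2 and 1439.7 (0.68), but 110.8 and 74.4 (-0.57) in a dimmer probe set. ABCD3, a fatty acid transporter of the peroxisomal membrane, read 1640.6 and 1984.7 (0.27), and 381.8 and 566.4 (0.57) in its second probe set. CROT, the peroxisomal carnitine octanoyltransferase, read 301.7 and 267.9 (-0.17) but 96.8 and 235.9 (1.29) in a dimmer probe set; it lies outside the rule for naming genes and was chosen after its values were seen. Of 19 further mitochondrial genes, 13 entered, 9 of them within the SD, with a median of 0.21 and none at 2-fold. MLYCD, which breaks down the CPT1 inhibitor malonyl-CoA, read 85.8 and 141.4 (0.72), and IVD, the isovaleryl-CoA dehydrogenase, read 96 and 136.8 (0.51). A second, dimmer IVD probe set read 34.3 and 102.8 (1.58), so IVD passed 2-fold only where that probe set was counted.

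Electrons from the acyl-CoA dehydrogenases pass through the electron transfer flavoprotein. ETFA, its alpha subunit, read 3381.1 and 4718.5, a log2 ratio of 0.48, and its beta subunit ETFB read 813.6 and 954.8 (0.23). After loess ETFA was within the SD of 0.42. ETFDH, the membrane oxidoreductase that accepts these electrons, read 191.8 and 154.6 (-0.31) in 1 probe set and 155.8 and 174.8 (0.17) in the other. After loess the first was at -0.42, at the limit of the SD.

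The transcriptional regulators were read less clearly. PPARA, the receptor most tied to fatty acid oxidation, had 5 entering probe sets that disagreed. The brightest, 226978_at, read 239.4 and 154 (-0.64), 223438_s_at read 162.2 and 125.5 (-0.37), 210771_at 50.9 and 47.5 (-0.10), 223437_at 151.1 and 154.8 (0.03) and 1560981_a_at 49.9 and 56.7 (0.18). Their median was -0.10, so the lower PPARA signal rests on 1 or 2 probe sets. PPARD, the widely expressed receptor, read 1452.9 and 1598.6 (0.14), with 0.22 and -0.18 in its other entering probe sets. PPARG did not enter (4.4 and 3.2), nor did the coactivator PPARGC1A (37.3 and 22.2, and 18.1 and 19.9).

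ANGPTL4, a secreted lipoprotein lipase inhibitor and PPAR target, did not enter. Its probe set 223333_s_at read 34 and 31.8, whereas 221009_s_at read 6.1 and 52.1. Of 13 other PPAR partners and targets, 10 entered with a median of 0.05, and 2-fold was passed by 1 gene in each direction in its brightest probe set. The lower one was PDK4, which spares glucose by inhibiting pyruvate dehydrogenase, with 944.7 and 272.7 (-1.79) and, in a dimmer probe set, 99.4 and 50.2 (-0.99). PDK4 had the 5th lowest ratio of the 7913 genes with a mean signal of at least 209. Its list was also chosen with earlier results of these data known, so that place is only a description. The higher one was RXRA, the dimer partner of the PPARs, with 338.4 and 724.1 (1.10). Its second probe set read 185.6 and 166.8 (-0.15), and its ratio was 0.89 after loess, under 2-fold. MED1, a Mediator subunit that binds PPARs, read 354.3 and 451.1 (0.35) but 123.4 and 366.8 (1.57) in a dimmer probe set, and was likewise chosen after its values were seen. PLIN2, a lipid droplet protein and PPAR target, read 726.6 and 737.2 (0.02), with 60.5 and 39.1 (-0.63) in a dimmer probe set. CPT1A and ACADM, members that are also PPAR targets, had the ratios of 0.44 and 0.17 given above. They are only examples, since the PPARs switch on many genes of these steps. The members were not sorted by PPAR regulation, and their ratios ran from -1.60 (SLC27A2) to 0.79 (FABP5).

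Among 14 further genes of uptake, activation and binding, 7 entered with a median of 0.16 and none at 2-fold (all genes: 2.38% lower, 2.29% higher). ACSF3, a mitochondrial malonyl-CoA synthetase, read 86.9 and 51.9 (-0.74). CAV1, the caveolin that takes part in fatty acid entry at the membrane, read 3425.6 and 5378.8 (0.65), with 1465.7 and 2876.6 (0.97) in its second probe set.

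Where a member had several entering probe sets, they bounded how far a single reading could be taken. Of the 12 such members, the highest and lowest log2 ratio lay within 0.42 of each other in 8 and further apart in 4. In 6 (ACSL4, ACADSB, HADH, ETFDH, PPARA and PPARD) the probe sets lay on both sides of 0. The value of 0.42 is only a mark here, since it is an SD of single values and such a spread grows with the number of probe sets. The shares over all genes were not computed. The spread was smallest for ACAA1 (0.03) and largest for PPARA (0.82), and for SLC27A2 it was 0.21. The other 21 entering members had 1 entering probe set. Of the 6 members higher by more than the SD, SLC27A1 and FABP5 remained beyond it after loess, where 11.9% of all genes did in that direction. Of the 3 lower ones, SLC27A2 (-1.82) and PPARA (-0.77) remained and ACSL5 (-0.28) did not, while ETFDH (-0.42) passed just beyond the SD, where 15.3% of all genes did.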

How the data were processed

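RNA of 2 HCC15 cultures (control siRNA and CTNNB1 siRNA, 1 array each) was measured on biotin-labelled expression arrays. The deposited values were linear signal intensities, 1 for each of 54675 probe sets per array; the authors used MAS5, per the submitters' processing notes. MAS5's version, target and scaling, and any detection calls, were not given in the sources used here, and the 2% trimmed means were 233 and 271, so the arrays do not share 1 target.

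From these intensities log2 ratios were computed without further normalization (Python 3.11.15, numpy 2.4.6, pandas 2.3.3, loess by statsmodels 0.14.6). Signals under 13.8, the 25th percentile of all values, were set to it. Names came from GEO's platform annotation, in which 41097 had a single symbol, and no named gene's symbol differed from NCBI RefSeq. Members and lists were chosen with earlier results of these data known. Every member is accounted for. Members past 2-fold or the probe set SD have all entering probe sets given, and other lists name genes past 2-fold and the 2 largest ratios. SLC27A5 and PLIN2 were named outside this rule, as were CROT, MED1, PEX14 and PEX19. The calculation was tested on simulated arrays with planted changes past 2-fold in bright genes. They held no difference in scaling and no dependence of the ratio on signal, so small ratios and list medians were not covered. The number of arrays limits the precision. Alternatives were other normalizations, floors, filters, probe set choices, symbols and list memberships. Protein sequences were not used here.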

Additional observations from a re-analysis of the deposited data

How the results depend on the processing

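The count of members at least 2-fold lower (1, SLC27A2) and at least 2-fold higher (0) was the same under 13 alternative settings. The difference between mitochondrial and peroxisomal medians moved by less than the rough mark of 0.24 in all 16. Scaling decided the level of the medians. After quantile normalization the median was -0.03 for the members and -0.03 for the mitochondrial enzymes, and after loess -0.02 and -0.02. With scaling to a common median it was 0.31 and 0.37, with scaling to a common 2% trimmed mean -0.04 and 0.02, and with centring on the median ratio 0.02 and 0.08. The peroxisomal median was -0.07 with the trimmed mean scaling. The median of all genes moved with them, from -0.07 with the trimmed mean to 0.29 with the common median. Of 410 values of single members under the alternatives, 408 moved by less than the SD and stayed on their side of 2-fold, the exceptions being ACSL4 (-0.13 without _s_at and _x_at probe sets) and PPARA (-0.10 with the median over probe sets). No paired analysis was possible because each group was 1 array. Low signal limits what can be said of CD36, PPARG, PPARGC1A and ANGPTL4.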

Other observations

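Genes of peroxisome assembly were not part of the comparison above. Of 15 peroxin genes, 11 entered, with a median log2 ratio of 0.13 and none at 2-fold (all genes: 2.38% lower, 2.29% higher). Of the 11, 7 were within the probe set SD of 0.42, 3 higher and 1 lower by more. Over all genes these shares were 66.9%, 21.3% and 11.9%, so the counts are near the background. PEX5, the receptor that imports most peroxisomal enzymes, read 405.7 with control siRNA and 623.6 with CTNNB1 siRNA (0.62), and 65.9 and 93.5 (0.50) in its second probe set. PEX14, its docking partner, read 570.1 and 779.3 (0.45), with 167 and 265.1 (0.67) in a dimmer probe set, and PEX19, which inserts membrane proteins, read 424.6 and 588.1 (0.47) and 183.5 and 263.1 (0.52). PEX6, an ATPase that recycles PEX5, read 262.7 and 183.3 (-0.52) and 187.4 and 168.5 (-0.15). After loess the ratios were 0.41 for PEX5, 0.22 for PEX14 and 0.26 for PEX19, all within the SD of 0.42. For PEX6 the ratio was -0.66 after loess. PEX14 and PEX19 lie outside the rule for naming genes and were chosen after their values were seen. No explanation was tested.

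Among the 24 member probe sets under the signal filter, 4 were at least 2-fold higher on the CTNNB1 siRNA array and 2 at least 2-fold lower, counting signals under 13.8 as 13.8. The higher ones belonged to ACSL4 (1557419_a_at, 23 and 69.2), ACAD9 (239976_at, 32.1 and 64.3), PPARD (210636_at, 8.6 and 36.1) and ANGPTL4 (221009_s_at). The lower ones belonged to CD36 (209555_s_at, 41.2 and 3.5) and CPT1A (210687_at, 32.9 and 8.8). The brighter probe sets of ACSL4, ACAD9, PPARD and CPT1A did not pass 2-fold. No share was computed over all probe sets under the filter, so the counts of 4 and 2 have no background beside them. With no filter, 1275 of 19775 genes passed 2-fold downward and 722 upward. With the filter, 298 and 287 of 12531 genes did so. Whether the dim member probe sets differ by more than error was not tested.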
